A study of Brassica oleracea var. italica with 2 samples.

Results

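Among the newly identified miRNA candidates of broccoli, 22 sequences were 23 nt or longer and had no listed stem-loop at the repeat on chromosome A06 (20 to 20.3 Mb) or on Scaffold000273, where 24 other candidates lie. In all, 54 candidate sequences were deposited with read counts, and the authors had selected them for a difference between the libraries. Out of these, the 22 were chosen by length and position, and 8 shorter candidates also lay elsewhere. Each sequence was counted once, together with its 115 listed stem-loops of 281 in all. Of the 22, 21 were 24 nt long and 1, candidate-03, was 23 nt long. The nearest sequences below the length limit were 2 candidates of 22 nt.

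The study sequenced small RNA (sRNA) from the shoot apex of the heat-tolerant (HT, labelled CNE, with high curd-forming capacity) and the heat-sensitive (HS, labelled CNL, with low curd-forming capacity) genotype of broccoli, to find sRNAs that differ between lines with contrasting head formation. The lines are described as isogenic. Both sets of plants grew at 22 °C under 18 h light and 6 h dark and had an age of 54 days by the sample descriptions, before a head had formed. There was 1 library per genotype, so no value has a replicate check and each test compares 2 libraries, not the genotypes. How many plants entered a library is not given in the sources used here. The libraries held 27069903 reads in HT and 26253036 reads in HS. TPM is the number of reads of a sequence per 1000000 reads of the library. Intervals are exact 95% confidence intervals (CI, Clopper-Pearson) and cover counting error only. Reads were amplified by PCR without molecular identifiers and are not independent molecules.

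In plants, most miRNAs are cut from a stem-loop precursor by DICER-LIKE 1 to a length of about 21 nt, often begin with U, and act through ARGONAUTE 1 on mRNAs. Small RNAs of 24 nt are mostly siRNAs cut from double-stranded RNA by DICER-LIKE 3, are bound by ARGONAUTE 4 and related proteins with a preference for a 5′ A, and direct DNA methylation, mainly at repeats and transposons. Stem-loops that give 24-nt products also exist, and length alone does not tell these classes apart. Methylation, bound proteins and double-stranded precursors were not analysed here, so the class of each sequence was not tested.

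The 22 sequences are shown in order of their fold change, since base composition, shared stretches and the 5′ base are compared further on. The letters are those of the deposited tables, written as DNA with T for U. Capitals mark bases 2 to 8, the seed. Numbered names are those of candidates with the same sequence in the study's numbered list (16 of the 22). The letters A to F name the other 6, in order of their HT reads. The first 11 came from the deposited table of candidates higher in HT:
candidate-03: tAGGAGTTaggatgaagaagcta
candidate-01: aGGAGTTAggatgaagaagctatc
candidate-02: aGAGTGAAaaatagagtgatgaac
candidate-C: aTCCTGGTttgattagaatgacga
candidate-04: aGGGATAGttgagaatgtggctgc
candidate-06: gTGGAAGAaagagaagatgatgtg
candidate-B: aAAGAGATtaagagaataagtaga
candidate-D: gTTTAATAggatgattggtagagc
candidate-E: aACGAGGCaacaaagaacatacaa
candidate-07: gGAGATAGttgggaatgtggctgc
candidate-05: aAGGAGTGgagttttgaagataga

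The other 11 came from the table of candidates lower in HT:
candidate-40: aCCGTGGTggtccagactagagac
candidate-A: gAGAACTCtttatataggaagaag
candidate-39: aTTATTTGaacttggactcaatgg
candidate-23: gTATTCTGacggacattccgacgg
candidate-34: aTTGGATCtgatttcttaatcggc
candidate-36: aCTCGTGAtggcggacacctcagc
candidate-33: gAGACAGActgtactagcgacgct
candidate-37: aTTTGGCActgatcaattgttcgg
candidate-09: gGGGCTGTagatgctctggacagc
candidate-F: tGAGAACTctttatataggaagaa
candidate-16: gTTGGCGTtaagtgaaacgacgtc

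All 22 seeds were distinct, also those of the pairs that overlap by a shift. Distinct seeds do not separate families here, since some members share most of their bases, as given further on. The longest stretch that a member shared with a deposited known miRNA was 6 to 11 bases, and its longest match to the reverse complement of another member was at most 8 bases. The 11-base stretch was that of candidate-06 with a miR156 record.

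The long candidates were divided evenly between the tables, 11 higher and 11 lower in HT. The authors had selected both tables for a difference, so the direction of each member is given as a description. A member was called when its fold change was over 2 and the unadjusted p was under 0.01 (two-sided Fisher's exact test of its reads against the rest of the library). By this rule 19 of 22 were called, 11 higher and 8 lower in HT, beside 87.0% of all 54 candidates. Called higher were 24.1% of the 54 (13 sequences) and called lower 63.0% (34 sequences), and 11 of the 13 higher calls were long candidates elsewhere. Among 169 records of known miRNAs with counts, a table that also holds miRNAs with no difference, 14.8% passed the same rule. The calls depended on how the libraries were scaled. With the summed reads of the deposited known miRNAs as library size, 18 were called, 7 higher and 11 lower, and with the summed reads of the candidates 12 were called, 11 higher and 1 lower. The candidates had been selected for a difference, 41 of the 54 being lower in HT, and summed to 47838 reads in HT and 82392 in HS. Scaling by that sum moves every fold change upward, so the loss of lower calls under it is no check of them.

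The 3 members that missed the fold threshold here were candidate-40, candidate-A and candidate-39, at 0.521, 0.516 and 0.515 of HT over HS. The fold changes printed by the study, which were not used here, lay past 2 for candidate-39 and candidate-40. Their p-values did not limit the call, since all 22 members had a p under 0.01 after Benjamini-Hochberg adjustment over the 54 candidates (Fisher's exact test), the highest being 2.05e-16 for candidate-40. In 14 of the 22 the whole CI of the fold change lay past 2, 11 higher and 3 lower in HT, beside 68.5% of the 54 candidates. The 3 lower ones were candidate-09, candidate-F and candidate-16.

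**Figure D1:**
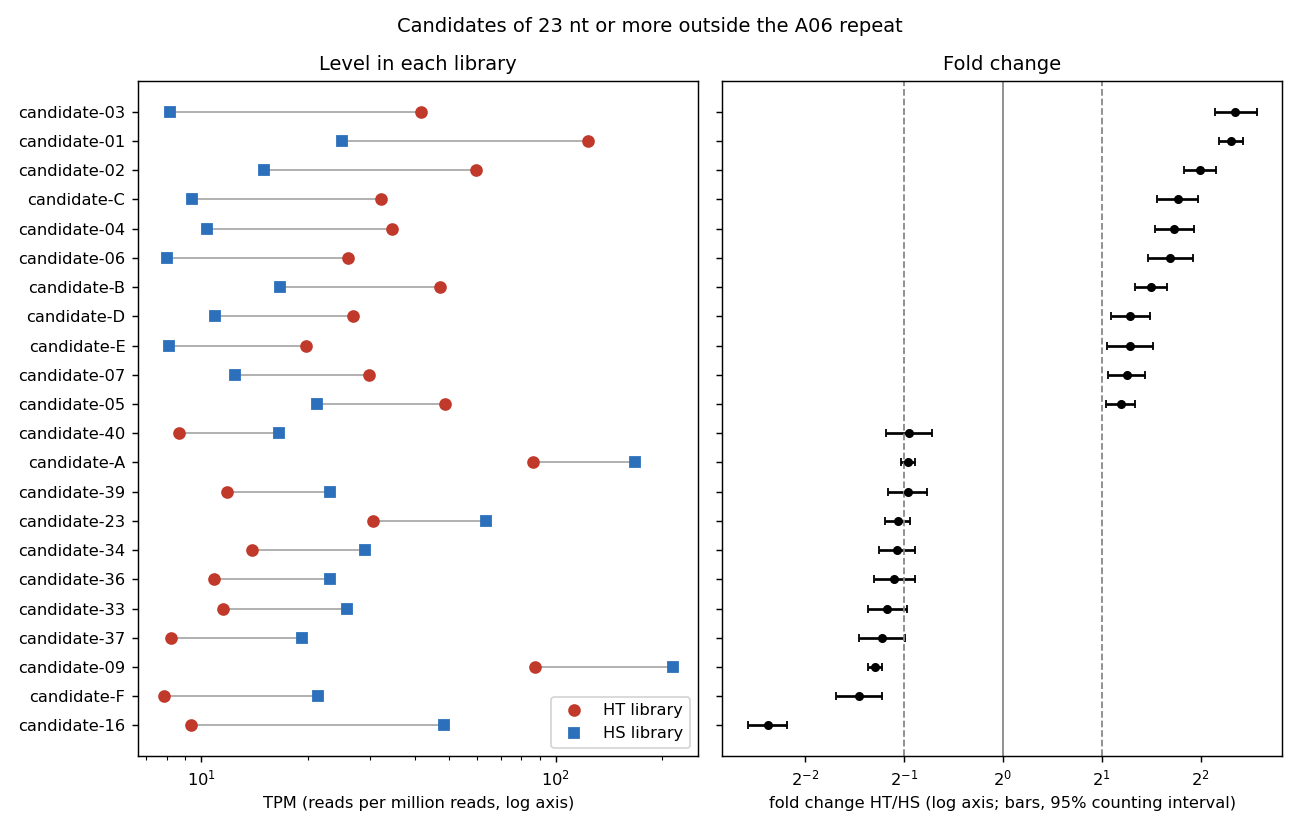
Level (left, TPM on a log axis, circles for the HT library and squares for the HS library) and fold change (right, HT/HS on a log axis, bars for the 95% counting interval, dashed lines at 2-fold) of the 22 long candidates, 1 library per genotype. The 11 higher members lie between 2.29 and 5.11, the 11 lower ones between 0.193 and 0.521, and no member lies between these groups. The authors had selected the candidates for a difference, so the gap cannot be read as a trait of the long candidates.

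Summed over the 22 members, HT held 20992 reads and HS 20913, with a fold change of 0.973 (95% CI 0.955 to 0.992). This sum joined opposite parts, the tables of higher and of lower candidates. The authors' selection had fixed the direction of each part, so the ratios below are descriptions. The higher members gave 13248 reads in HT against 3819 in HS, a ratio of 3.36 (95% CI 3.25 to 3.49). The lower members gave 7744 and 17094 reads (0.439, 95% CI 0.428 to 0.451). The long candidates held 43.9% of all candidate reads in HT and 25.4% in HS. The median of the 22 log2 fold changes was 0.13, a value in the empty space between the groups that describes no member. By table the medians were 1.69 and -1.09. Among the other lower candidates the medians were -1.12 (shorter elsewhere) and -1.33 (A06 repeat). Each of these 2 sets held 1 higher sequence, at 1.20 and 1.31. The median of -1.10 over all 54 candidates joins 13 higher and 41 lower sequences and is no like value for a single table.

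The median level was 28.2 TPM in HT (range 7.83 to 123.4 TPM) and 20.2 TPM in HS (range 8.0 to 214.0 TPM). A few members held much of the sum. The 3 with the most reads held 38.3% of the members' reads in HT (candidate-01, candidate-09 and candidate-A) and 55.8% in HS (candidate-09, candidate-A and candidate-23).

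Candidate-09 was the most abundant long candidate in HS. Its reads numbered 2364 (87.3 TPM) in HT against 5618 (214.0 TPM) in HS, a fold change of 0.408 (95% CI 0.389 to 0.428). Candidate-A had 2332 and 4381 reads (86.1 and 166.9 TPM), a fold change of 0.516 (95% CI 0.491 to 0.543). Both were lower in HT and yet stood directly after candidate-01 among the members there. Candidate-23 followed in HS with 1668 reads (63.5 TPM), against 824 reads (30.4 TPM) in HT, a fold change of 0.479 (95% CI 0.440 to 0.521).

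With all reads as library size, the largest difference in either direction was of similar size. For candidate-16, HT held 253 reads (9.35 TPM) where HS held 1273 (48.5 TPM), so HT was 5.19-fold lower (95% CI 4.53 to 5.96). For candidate-03 the libraries held 1132 reads (41.8 TPM) and 215 reads (8.19 TPM), so HT was 5.11-fold higher (95% CI 4.41 to 5.94). Candidate-16 was thus low in HT and among the 4 highest members in HS, and candidate-03 had close to the lowest level in HS. The similar size depended on the scaling. With the summed candidate reads as library size, candidate-16 lay at 0.342 and candidate-03 at 9.07 of HT over HS. With the summed known miRNA reads, candidate-16 lay at 0.148 and candidate-03 at 3.92.

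Candidate-01 was the most abundant long candidate in HT, where it reached 3341 reads (123.4 TPM) against 655 (24.9 TPM) in HS, a 4.95-fold rise (95% CI 4.55 to 5.39). Candidate-02 had 1617 and 394 reads (59.7 and 15.0 TPM), a ratio of 3.98 (95% CI 3.56 to 4.45). Candidate-C had 870 and 248 reads (32.1 and 9.45 TPM), 3.40-fold higher (95% CI 2.95 to 3.93). The CIs of candidate-01 and candidate-03 overlapped, so their order in fold change was within counting error. The CI of candidate-02 lay below that of candidate-01 and overlapped that of candidate-C.

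Candidate-04 followed, from 935 reads in HT (34.5 TPM) to 273 in HS (10.4 TPM), a ratio of 3.32 (95% CI 2.90 to 3.82). The remaining higher members spanned 2.29-fold to 3.24-fold. They were candidate-06 with 701 and 210 reads, candidate-B with 1274 and 438, candidate-D with 726 and 288, candidate-E with 534 and 213, candidate-07 with 803 and 327, and candidate-05 with 1315 and 558. The CI of each of the 6 overlapped that of at least 1 neighbour in this order.

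Among the lower members, candidate-F counted 212 reads (7.83 TPM) in HT against 562 (21.4 TPM) in HS, a fold change of 0.366 (95% CI 0.311 to 0.429). Candidate-37 had 223 and 504 reads (8.24 and 19.2 TPM), with a fold change of 0.429 (95% CI 0.365 to 0.503). Candidate-33 had 311 and 677 reads, candidate-36 had 294 and 608, candidate-34 had 376 and 762, candidate-39 had 321 and 605, and candidate-40 had 234 and 436. These last 5 lay between 0.446 and 0.521, and their CIs overlapped one another, so their order was not resolved at this depth.

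Several long candidates were not independent sequences. Candidate-01 and candidate-03 share 22 bases, since candidate-03 begins 1 base earlier and ends earlier. The reads of candidate-03 were 0.339 of those of candidate-01 in HT and 0.328 in HS, so the ratio of the overlapping products was nearly the same in both libraries. Candidate-A and candidate-F share 23 bases and are shifted by 1 base. Here candidate-A had 11 times the reads of candidate-F in HT and 7.80 times in HS, and the CIs of their fold changes (0.491 to 0.543 and 0.311 to 0.429) did not overlap. Candidate-33 shares 22 bases with candidate-35, a candidate of 22 nt that is no member. Candidate-35 had 334 and 702 reads, a fold change of 0.461 (95% CI 0.404 to 0.526), beside 0.446 (95% CI 0.388 to 0.510) for candidate-33.

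Candidate-04 and candidate-07 differ at 3 positions, A1G, G3A and A12G, counted from the 5′ end with the base of candidate-04 first, and both end in the same 12 bases. Candidate-04 lay on chromosome A10 and candidate-07 on chromosome A08. Of the 94 bases of the candidate-04 precursor, 88 (93.6%) were identical in an alignment to the 144-nt precursor of candidate-07. The first had 1.16 times the reads of the second in HT and 0.835 times in HS, and the CIs of the fold changes, 2.90 to 3.82 and 2.09 to 2.72, did not overlap. The difference between the 2 fold changes was not tested.

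The 5′ base was A in 12 of the 22 members (54.5%), G in 8 and T in 2, and never C. Among the 8 shorter candidates elsewhere 1 began with A, and at the A06 repeat 4 of 24 did. Among the members, A came first in 7 of the 11 higher and 5 of the 11 lower ones. By reads the picture differed between libraries, since candidate-09 and candidate-A, the most abundant members in HS, begin with G. Weighted by HS reads, the share of a 5′ A fell to 27.2%. Known miRNA records with counts began with T in 53.8%, and 8 of the 169 were 23 nt or longer.

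The sequences of the higher members were poor in C. They held 0 to 5 cytosines (median 1), and 9 of 11 had at most 2, whereas the lower members held 2 to 8 (median 4), and 2 of 11 had at most 2. Candidate-05, candidate-06 and candidate-B had no C at all. A and G made up a median of 73.9% of the bases in the higher members and 58.3% in the lower ones, with 83.3% in candidate-06 and candidate-B and 41.7% in candidate-34. GC content had a median of 37.5% and 50%. The lowest was that of candidate-B (25.0%), and candidate-36 and candidate-09 had the highest (62.5%).

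Across the 22 sequences, the Spearman correlation of the log2 fold change was 0.63 with the share of A and G and -0.59 with the share of C. Across the 32 candidates that are not members the values were 0.37 and -0.18, and across 56 sequences of known miRNAs with at least 50 reads in all they were 0.45 and -0.12. With at least 10 reads (79 sequences) they were 0.25 and -0.12. The members form 11 higher and 11 lower sequences with none between, so their values largely restate the contrast of these 2 selected groups. The non-members held only 1 higher sequence at the A06 repeat and 1 among the shorter candidates elsewhere. Their values are therefore not comparable with those of the members. All of these correlations are descriptions across sequences that share the same 2 libraries and, for the pairs above, most of their bases. With 1 library per genotype, base composition, library and genotype cannot be told apart here.

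**Figure D2:**
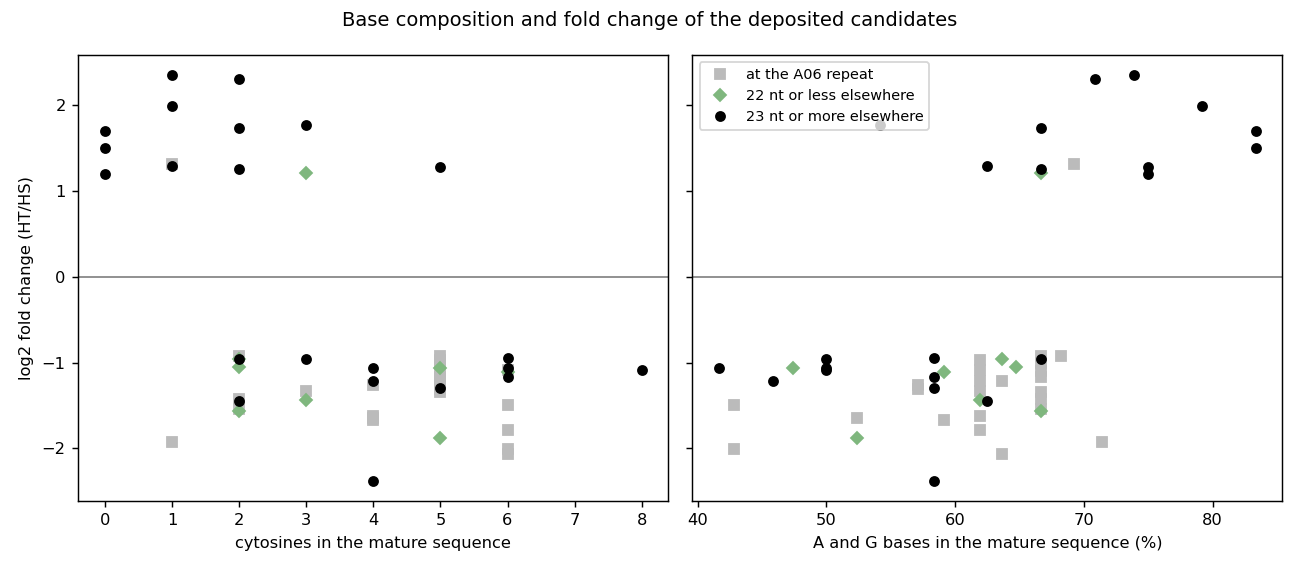
Log2 fold change (HT/HS, vertical axis) of the 54 deposited candidates against the number of cytosines (left) and the percentage of A and G bases (right) in the mature sequence, with black circles for the 22 long candidates elsewhere. The 3 long candidates without a cytosine lie in the upper group, and the lower long candidates start at 2 cytosines.

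The positions of the stem-loops are given as in the deposited tables, on Brassica rapa sequence. The candidate tables do not name the build, and no annotation of genes, exons or introns was used here. Of the 115 stem-loops, 49 were on chromosome A02 (10 members), 16 on A01, 10 on A03 and 8 on A05, and the other chromosomes had 2 to 6 each. The 9 stem-loops on unplaced scaffolds belonged to 7 members, 4 of which were listed on scaffolds only (candidate-B, candidate-C, candidate-D and candidate-33). The nearest locus of a deposited known miRNA was 1878 nt from a member's stem-loop, that of candidate-37 on A02. With 1 listed stem-loop there were 10 members, 7 had 2 to 8, and 5 had 10 or more (candidate-01, candidate-02, candidate-03, candidate-16 and candidate-37). The tables list at most 20 stem-loops per sequence, so the 20 of candidate-01 may be a lower limit.

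The stem-loops of candidate-01 and candidate-03 formed 1 tandem array on A02. The 20 of candidate-01 spanned 4004 nt, from 23036858 to 23040861. Of their 19 spacings from start to start, 16 were exactly 175 nt and 18 were within 1 nt of that, and the largest was 748 nt. The 17 of candidate-03 spanned 3090 nt, 13 of their 16 spacings were 175 nt, and all 17 overlapped a stem-loop of candidate-01. The distinct precursors were 9 for candidate-01, with a median identity of 97.1% between pairs, and 6 for candidate-03 (90.3%). Those of candidate-01 were all 104 nt long, and those of candidate-03 103 to 113 nt. Identity is a share of the longer precursor, so unequal lengths lower it and the 2 medians are not comparable. A read of candidate-01 or candidate-03 cannot be assigned to 1 copy. The first listed stem-loop of candidate-01, 104 nt of the 175-nt spacing, is shown with the mature sequence in capitals:
candidate-01 at A02:23036858-23036961, plus strand: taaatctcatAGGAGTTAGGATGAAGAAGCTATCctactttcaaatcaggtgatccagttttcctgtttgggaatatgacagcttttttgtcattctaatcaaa

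**Figure D3:**
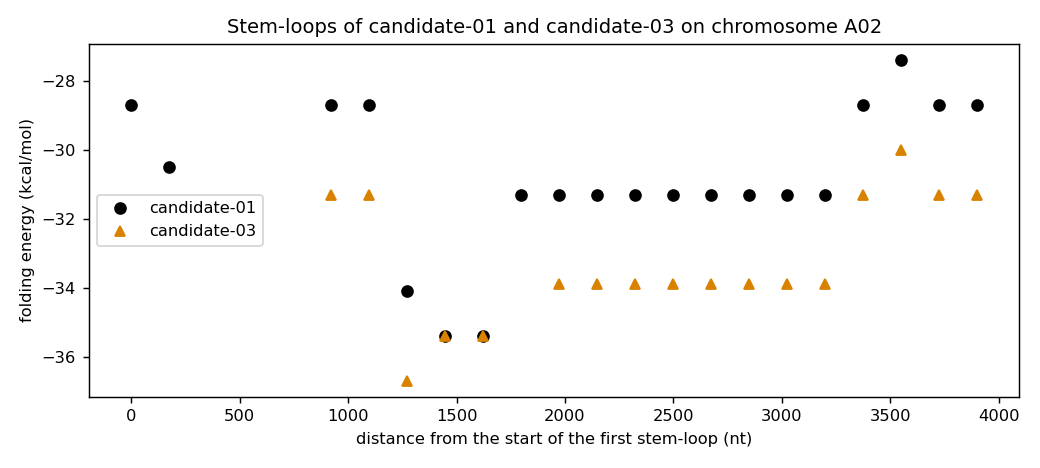
Folding energy (vertical axis, kcal/mol) of each listed stem-loop of candidate-01 (circles) and candidate-03 (triangles) against the distance of its start from the first stem-loop (nt) on chromosome A02. Most stem-loops follow one another at 175 nt, with a gap of 748 nt after the second of candidate-01, and energies lie between -36.7 and -27.4 kcal/mol.

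The other members with many stem-loops lay on several chromosomes each. Candidate-02 had 14 distinct precursors on 7 chromosomes, all with the mature sequence in the 3′ arm and with a median identity of 84.2%. Candidate-16 had 10 stem-loops on A02, A03, A06 and A07, and candidate-37 had 11 on A01, A02 and A03. Some of these were close neighbours on opposite strands, with starts 923 nt apart for candidate-16 on A02, and 998 nt on A01 and 1304 nt on A02 for candidate-37. Candidate-23 had 8 on 5 chromosomes and 1 scaffold, with a median identity of 89.1%. Candidate-A had 8 and candidate-F 7, on the same 5 chromosomes and 2 scaffolds, and 7 of 8 and 7 of 7 overlapped. Candidate-09 had 3 precursors on A01 and A03, of 74, 184 and 214 nt.

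Every mature sequence began or ended 10 nt from an end of its precursor and lay wholly on 1 side of the loop, in 115 of 115 stem-loops, with 65 (56.5%) on the 5′ arm and 50 on the 3′ arm. For 11 members it lay only in the 5′ arm, for 8 only in the 3′ arm, and for 3 in either arm depending on the locus (candidate-09, candidate-16 and candidate-37). In the authors' drawings, 17 to 23 of its bases were paired. Placement in 1 arm and a limit on mismatches were among the criteria for candidates, so these values describe the selection as well as the loci. Precursor lengths of the members of 24 nt differed only by multiples of 10 nt. Neither the fixed offset nor the length of a precursor is therefore read as a trait of its locus. Of the stem-loops of candidate-37, the 6 with the sequence in the 3′ arm had precursors of 124 to 234 nt and energies of -63.6 to -28.2 kcal/mol. The 5 with the sequence in the 5′ arm had precursors of 74 to 84 nt and energies of -25.6 to -18.4 kcal/mol.

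The folding energy (dG, lower for a more stable fold) had a mean of -33.98 kcal/mol over the 115 stem-loops (SD 16.9), a median of -31.3 and a range of -98.0 to -11.3 kcal/mol. The mean was -29.2 kcal/mol for the shorter candidates elsewhere (median -25.35) and -46.2 kcal/mol at the A06 repeat (median -29.1). Energies at the A06 repeat reached -231.3 kcal/mol (SD 44.5), so the order by mean differed from that by median. By member, candidate-23 had the lowest mean (-76.7 kcal/mol), followed by candidate-36 (-63.5) and candidate-07 (-49.3). The highest were those of candidate-B (-11.3), candidate-D (-12.8) and candidate-E (-13.8). Precursor length differed alongside, with up to 184 nt for candidate-23 and 74 nt for candidate-D, and its part in the energies was not tested.

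**Figure D4:**
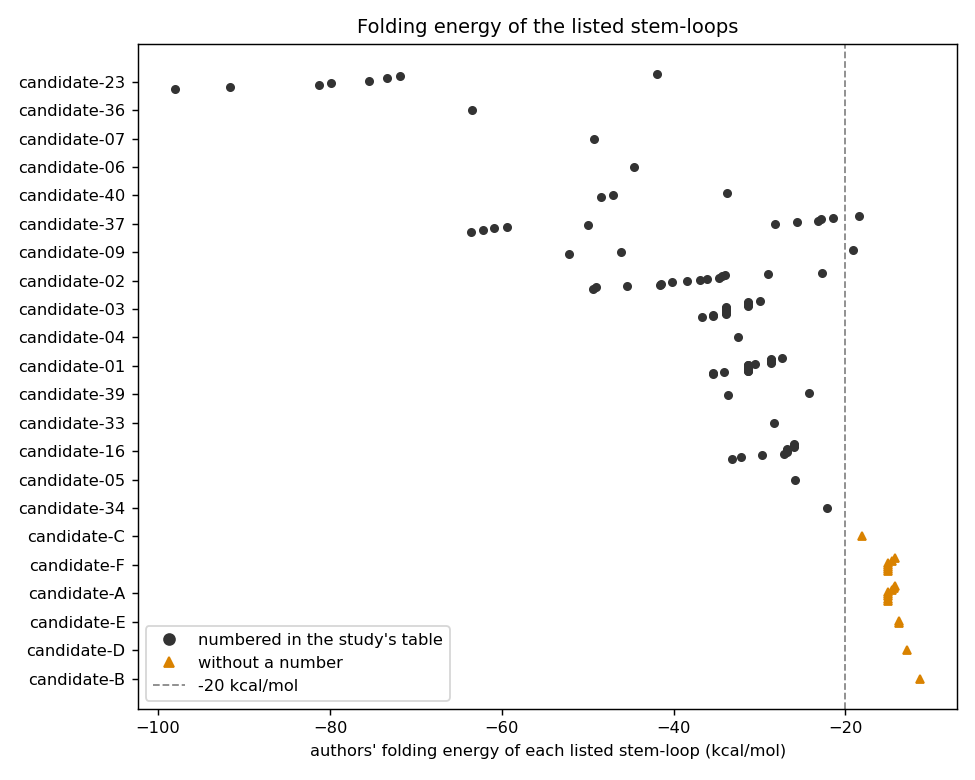
Folding energy of each of the 115 listed stem-loops (kcal/mol, authors' values) by member, with circles for the 16 members that the study numbered and triangles for the 6 without a number. The dashed line stands at -20 kcal/mol, and all 20 triangles and 2 circles lie to its right.

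All 6 members without a number had a mean energy above -20 kcal/mol and no numbered member did. By stem-loop, 20 of 20 of the unnumbered and 2 of 95 of the numbered lay above that value. An energy of -20 kcal/mol or lower was one of the criteria for a numbered candidate, so the values that chose the numbered members include this energy, and nothing is read from the difference. When the same precursors were refolded with RNAfold at 37 °C, 20 of 20 and 1 of 95 lay above it, and at 22 °C, the temperature of growth, 4 of 20 and 0 of 95 did. The 6 unnumbered members together held 5948 reads of the HT library and 6130 of HS, of which candidate-A gave 2332 and 4381. By the call rule 5 of the 6 were called, 4 higher and 1 lower in HT, beside 87.0% of all 54 candidates.

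Candidate-36 and candidate-B had the lowest and the highest energy among the 10 members with 1 stem-loop, and both are shown with the mature sequence in capitals. In candidate-36, 23 of 24 bases were paired, and the precursor held a perfect reverse complement of 17 of them:
candidate-36 at A03:28782300-28782413, plus strand: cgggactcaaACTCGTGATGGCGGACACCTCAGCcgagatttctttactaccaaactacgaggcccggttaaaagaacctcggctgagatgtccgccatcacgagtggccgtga
candidate-B at Scaffold001985:499-592, plus strand: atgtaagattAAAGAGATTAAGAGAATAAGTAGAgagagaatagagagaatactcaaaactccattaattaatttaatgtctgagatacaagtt

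Candidate-B had 17 paired bases, with no perfect run of complementary bases longer than 5. A reverse-complement run of at least 10 bases between the mature sequence and the rest of its precursor was present in 30 stem-loops of 5 members (candidate-01, candidate-02, candidate-16, candidate-23 and candidate-36), in all 10 of candidate-16 and in 12 of 14 of candidate-02. A second copy in the same direction, of at least 10 bases, was present in 15 stem-loops of 3 members (candidate-02, candidate-16 and candidate-37). In candidate-02, 9 of the 14 precursors had such a copy. In candidate-16, the 7 stem-loops with the sequence in the 3′ arm held the reverse-complement run just before the mature sequence. The 3 with the sequence in the 5′ arm held that run and the direct copy in overlapping bases. These counts are sequence matches, and whether the runs pair in the authors' drawings was not analysed.

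No long candidate had a listed miRNA* match of 16 nt or more, the miRNA* being the strand opposite the mature sequence in the duplex. The longest match was 14 nt (candidate-09 and candidate-40), and 7 members had no match listed (candidate-04, candidate-06, candidate-07, candidate-16, candidate-33, candidate-39 and candidate-D). At the A06 repeat, matches of at least 16 nt stood beside 5 of 24 candidates, up to 21 nt. These are sequence matches to other reads, and the abundance of an opposite strand was not analysed here.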

How the data were processed

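Small RNA of shoot apexes was sequenced in 1 library for each of 2 genotypes. The authors removed adaptors, low-quality reads and lengths under 16 or over 31 nt, filtered out rRNA, tRNA and other non-coding RNAs of Rfam by BLASTN, set apart matches to plant miRNAs of miRBase, and predicted candidates among the rest with psRobot and mfold on B. rapa sequence. Versions of these tools are not given in the sources used here. For miRBase, the paper names release 21, the description of the tables release 19 and a header release 18. The candidate tables do not name a genome build, and the header of the known miRNA table names version 1.1.

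The deposited counts are whole numbers of raw reads per sequence and library, and the deposited energies are the authors' mfold values in kcal/mol. Some cells contain line breaks within quotes, and the unit of the columns was therefore recorded as other. The authors' own fold changes, p-values and q-values were not used. Library sizes were derived from the deposited counts and TPM of the known miRNAs. Scaffold numbers and positions are as deposited. The age of the plants is 54 days in the sample descriptions and differs in the paper, as does the kind of reads (single-end or paired-end).

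Sequences with 23 nt or more were kept when no listed stem-loop lay in the A06 window or on Scaffold000273. Each sequence was set against all remaining reads of its library in Fisher's exact test (two-sided), with Benjamini-Hochberg adjustment over 54 candidates, in Python 3.11.15 with scipy 1.17.1 and pandas 2.3.3. Fold changes are ratios of TPM with no pseudocount. No model with dispersion was fitted, since 1 library per genotype gives no estimate of the spread. Scripts were tested on simulated Poisson counts with the depths of these libraries. Those counts held no spread between plants and no PCR duplicates, so that test covers the code only. Precursors were refolded with RNAfold 2.7.2. Identity was the share of the longer precursor that matched in a global alignment (Biopython 1.88).

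The members and lists were chosen with earlier results of these data known. Every member may be named, and full values go to the 5 largest and 5 smallest fold changes, the 3 members with the most reads in each library, those that share 15 bases or more with another candidate, the 3 lowest and 3 highest mean energies, members with 20 stem-loops and any with a miRNA* match of 16 nt. Candidate-04 and candidate-07 were described as a pair after their sequences were seen, as were the repeats within precursors. The fold change, p, length and position rules and the library scaling were varied, and the closing section gives the effect.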

Additional observations from a re-analysis of the deposited data

How the results depend on the processing

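The fold change of each of the 22 long candidates kept its direction under the 3 other library scalings, without regard to its CI. No direction could have reversed. The selected log2 fold change nearest to none was -0.94 (candidate-40), and the largest shift by a scaling was 0.83. The kept direction is therefore no check of the members. With the summed candidate reads as library size, candidate-40, candidate-A and candidate-39 lay at only 0.924, 0.917 and 0.914. Their CIs under that scaling are not given here, so their direction there is not taken as resolved. The number of members called was 19 (11 higher and 8 lower in HT). It was 12 (11 higher, 1 lower) with the summed candidate reads as library size and 7 (6 higher, 1 lower) with a fold threshold of 3. With the summed known miRNA reads, or a median of ratios over known miRNAs with at least 50 reads, it was 18 (7 higher, 11 lower). These scalings shifted every log2 fold change by 0.83, -0.38 and -0.37. The first shift comes from the reads of the candidates themselves, which were selected for a difference and are mostly lower in HT. The median log2 fold change of 0.13 became 0.95, -0.26 and -0.25 under the 3 scalings. It was -0.94 for members of 24 nt or longer, for sequences with at least 1 stem-loop elsewhere and without the member with 20 stem-loops, and -0.95 from 22 nt. With 11 members on either side of an empty space, 1 sequence more or less moves this median across it. The share of a 5′ A moved from 54.5% to 27.2% when weighted by HS reads. The scalings for single members and for the median of each table were added after the data were seen. With the summed known miRNA reads, candidate-D, candidate-E, candidate-07 and candidate-05 fell under 2-fold (1.75 to 1.87), and candidate-40, candidate-A and candidate-39 passed it (0.395 to 0.399). No paired analysis was possible because each genotype has 1 library. The depth limits the order of members with close fold changes, and nothing here measures variation between plants.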
